A study of Mus musculus with 25 samples.

Results

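NIPBL, the loader of cohesin, was set against H3K27ac, a histone acetylation of active promoters and enhancers, in cells of a T cell precursor line that carried an empty vector. Of the 25 samples of the study, which concerned genome folding and the transcription factor TCF-1, 4 were used for this comparison. They were NIPBL lists 1 and 2 and H3K27ac lists 1 and 2 of chromatin immunoprecipitation followed by sequencing in Scid.adh, a mouse thymic lymphoma line labelled as DN3. The titles called these cells wild type and the treatment field gave an empty vector. Scid.adh is a single transformed line, and nothing in the labels says that same-antibody lists came from separate cultures. NIPBL lists held 9206 and 15232 peaks, and H3K27ac lists held 38827 and 42180.

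The 4 lists were merged wherever peaks touched or overlapped, which gave 47055 regions. A region with peaks of both NIPBL lists and both H3K27ac lists is called co-occupied here, and there were 7522 of these (16.0% of all regions). NIPBL-alone regions had both NIPBL lists and neither H3K27ac list, and numbered 241 (0.512%). H3K27ac-alone regions had both H3K27ac lists and neither NIPBL list, and numbered 19873 (42.2%). The remaining 19419 regions had peaks of 1 of the 2 lists of an antibody.

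Cohesin is a ring that holds and extrudes loops of chromatin, and NIPBL together with its partner MAU2 loads the ring and drives extrusion. H3K27ac is written by the acetyltransferases p300 and CBP around the nucleosome-depleted centres of active promoters and enhancers. In the DN3 stage, early thymocytes rearrange the T cell receptor beta locus under Notch signalling and commit to the T lineage.

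Promoters of all 3 classes are shown as sequence first, because CG content set H3K27ac-alone regions apart from the others. The windows run 250 bases before to 50 bases after an annotated start site and come from RefSeq (GRCm38.p6, the build called mm10). Promoter windows were present for 17491 of 21883 protein-coding genes. The first 4 are from co-occupied and NIPBL-alone regions. Hdac2 (chr10:36974294-36974593, plus strand) and Morc2a (chr11:3649187-3649486, plus strand) lie in the highest ranked co-occupied regions that overlap a window. Cacng2 (chr15:78119231-78119530, minus strand) and Iqsec3 (chr6:121473629-121473928, minus strand) are the same for NIPBL-alone regions. Capitals mark CG pairs, of which these windows hold 36, 46, 20 and 19.
Hdac2: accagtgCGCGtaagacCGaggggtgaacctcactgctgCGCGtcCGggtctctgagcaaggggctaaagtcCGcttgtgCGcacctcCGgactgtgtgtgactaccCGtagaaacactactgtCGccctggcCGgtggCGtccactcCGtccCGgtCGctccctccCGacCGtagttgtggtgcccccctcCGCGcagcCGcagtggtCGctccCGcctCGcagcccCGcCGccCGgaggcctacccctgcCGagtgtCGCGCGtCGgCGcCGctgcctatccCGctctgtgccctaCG
Morc2a: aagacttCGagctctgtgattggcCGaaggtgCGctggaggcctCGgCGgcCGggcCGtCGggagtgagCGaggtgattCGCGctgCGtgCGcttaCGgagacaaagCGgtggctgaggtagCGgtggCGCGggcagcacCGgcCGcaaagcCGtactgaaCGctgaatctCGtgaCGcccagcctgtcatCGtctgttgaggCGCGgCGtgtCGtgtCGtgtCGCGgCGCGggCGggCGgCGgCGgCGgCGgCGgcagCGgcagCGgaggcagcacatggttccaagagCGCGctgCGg
Cacng2: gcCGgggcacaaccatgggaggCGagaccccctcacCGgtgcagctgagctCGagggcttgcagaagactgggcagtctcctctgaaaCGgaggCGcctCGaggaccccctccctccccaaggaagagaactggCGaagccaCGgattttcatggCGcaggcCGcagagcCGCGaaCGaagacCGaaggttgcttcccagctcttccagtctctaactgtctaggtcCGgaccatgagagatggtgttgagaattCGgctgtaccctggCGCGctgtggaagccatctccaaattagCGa
Iqsec3: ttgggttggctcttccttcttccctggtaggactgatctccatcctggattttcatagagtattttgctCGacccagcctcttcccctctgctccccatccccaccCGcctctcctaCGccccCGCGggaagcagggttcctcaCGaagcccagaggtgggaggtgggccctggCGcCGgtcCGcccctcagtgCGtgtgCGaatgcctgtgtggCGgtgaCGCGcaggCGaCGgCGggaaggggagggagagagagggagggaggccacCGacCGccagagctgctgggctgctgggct

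Troap (chr15:99074723-99075022, plus strand) and Ngrn (chr7:80260965-80261264, plus strand) lie in the highest ranked H3K27ac-alone regions that overlap a window. Their windows hold 22 and 15 CG pairs, more than the class median given next. Tcf7 (chr11:52282965-52283264, minus strand), which encodes TCF-1, lies in a co-occupied region and its window holds 45 CG pairs. The Tcf7 window lies inside the annotated gene body, which reaches chr11:52283383, so it belongs to an internal start and not the outermost one. Capitals again mark CG pairs.
Troap: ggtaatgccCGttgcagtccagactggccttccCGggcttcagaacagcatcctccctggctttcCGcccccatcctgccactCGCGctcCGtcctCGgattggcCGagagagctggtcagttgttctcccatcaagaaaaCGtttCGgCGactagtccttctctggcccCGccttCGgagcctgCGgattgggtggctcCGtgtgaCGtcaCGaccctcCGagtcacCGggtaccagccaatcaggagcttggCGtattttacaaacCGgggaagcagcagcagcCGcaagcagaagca
Ngrn: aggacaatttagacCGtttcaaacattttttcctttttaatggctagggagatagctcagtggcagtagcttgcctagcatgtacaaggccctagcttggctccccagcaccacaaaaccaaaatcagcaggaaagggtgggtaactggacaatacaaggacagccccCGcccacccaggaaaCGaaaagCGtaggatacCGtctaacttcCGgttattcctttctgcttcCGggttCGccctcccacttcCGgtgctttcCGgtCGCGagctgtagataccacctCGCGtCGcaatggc
Tcf7: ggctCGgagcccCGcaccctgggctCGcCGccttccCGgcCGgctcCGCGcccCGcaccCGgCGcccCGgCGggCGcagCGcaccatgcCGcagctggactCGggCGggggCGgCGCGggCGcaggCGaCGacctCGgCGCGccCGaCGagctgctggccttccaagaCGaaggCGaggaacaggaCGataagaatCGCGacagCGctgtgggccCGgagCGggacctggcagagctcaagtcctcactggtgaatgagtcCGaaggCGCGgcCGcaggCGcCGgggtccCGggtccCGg

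Over all promoter windows, CG pairs set co-occupied and NIPBL-alone regions together and H3K27ac-alone regions apart. The median was 24 CG pairs per window in the 7719 windows that overlapped a co-occupied region, and 26 in the 29 windows that overlapped a NIPBL-alone region. It was 6 in the 1483 windows that overlapped an H3K27ac-alone region, against 7 in all 32851 windows and 4 in windows with none of the 4 lists. The G and C content had medians of 62.7% in co-occupied, 66.0% in NIPBL-alone and 52.7% in H3K27ac-alone windows, against 52.7% in all. The 32851 windows belong to 27025 genes, and non-coding genes are among them. Windows of 1 gene can overlap, so they are not independent.

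Short motifs were counted on both strands of the same windows, as letters and not as binding sites. GGGCGG, the box bound by Sp and Klf factors, stood in 67.7% of co-occupied, 62.1% of NIPBL-alone and 31.4% of H3K27ac-alone windows, against 35.7% of all windows. CCGGAAG, a site of ETS factors, stood in 21.7% of co-occupied, 3.45% of NIPBL-alone and 8.97% of H3K27ac-alone windows, against 8.86% of all. The 3.45% is 1 of 29 windows. TATAAA was rarer in co-occupied windows (5.57%) than in H3K27ac-alone windows (10.5%) or all windows (13.6%), and stood in 6.90% of NIPBL-alone windows. CCAAT, the NF-Y box, stood in 37.5% of co-occupied, 27.6% of NIPBL-alone and 38.0% of H3K27ac-alone windows, against 37.4% of all. CTTTGA, the core read by TCF and LEF factors, stood in 10.7% of co-occupied, 10.3% of NIPBL-alone and 17.5% of H3K27ac-alone windows, against 16.0% of all. AAGATGG, the YY1 core, stood in 7.35% of co-occupied and 7.28% of H3K27ac-alone windows and in 6.34% of all. GCGCATG, part of the NRF1 element, stood in 7.45% of co-occupied and 5.26% of H3K27ac-alone windows and in 3.91% of all. Neither of the last pair of motifs was found in the 29 NIPBL-alone windows.

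Nearly every NIPBL region that both lists held was acetylated, while most acetylated regions of the full lists held no NIPBL peak. Of 7767 regions with both NIPBL lists, 96.8% had both H3K27ac lists and 3.10% had neither. Of 31963 regions with both H3K27ac lists, 23.5% had both NIPBL lists, 14.3% had 1 and 62.2% had none. The middle set came mostly from the longer NIPBL list, since 4155 of those regions had NIPBL list 2 alone and 413 had NIPBL list 1 alone. Of 6531 regions with a single NIPBL list, 1834 (28.1%) had no H3K27ac. The number of regions in each class depended on list length. With each list cut to its 9206 strongest peaks, the majority turned: 65.9% of H3K27ac regions held both NIPBL lists, with 5829 co-occupied and 1369 H3K27ac-alone regions. Without NIPBL list 1 there were 11675 co-occupied and 1812 NIPBL-alone regions, and 36.5% of H3K27ac regions held NIPBL. Without NIPBL list 2 there were 532 NIPBL-alone regions. Without H3K27ac list 1 there were 29887 H3K27ac-alone regions.

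Co-occupied regions were the widest. Their median width was 3210.5 bp (quartiles 2338 and 4989.75 bp, up to 65495 bp). NIPBL-alone regions had a median of 374 bp (quartiles 279 and 516 bp, up to 5782 bp). H3K27ac-alone regions had a median of 1489 bp (quartiles 877 and 2568 bp, up to 37472 bp). A merged region is the union of its touching peaks. H3K27ac peaks covered a median of 97.3% of a co-occupied region in list 1 and 96.8% in list 2. The width of a co-occupied region is therefore mostly that of H3K27ac. The share of H3K27ac regions with both NIPBL lists was 0.472% below 0.5 kb of width, 1.62% at 0.5 to 1 kb, 12.3% at 1 to 2 kb, 36.1% at 2 to 4 kb, 37.5% at 4 to 8 kb and 49.6% at 8 kb and over. The first of these rests on 8 co-occupied regions. With the 4 lists cut to their 9206 strongest peaks each, the medians were 3102 bp in co-occupied and 2676 bp in H3K27ac-alone regions. With single H3K27ac lists left out, the H3K27ac-alone median was 857 bp without list 1 and 911 bp without list 2. Without NIPBL list 2, the NIPBL-alone median was 236.5 bp.

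**Figure D1:**
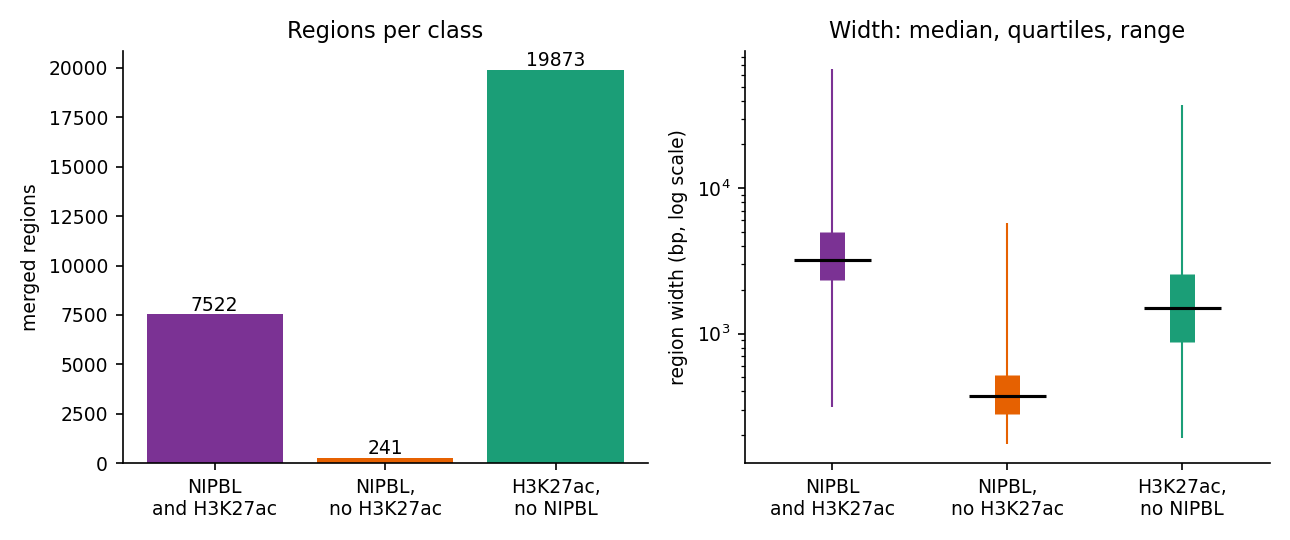
Left, the number of merged regions in each class. Right, region width in bp on a log axis, with the median as a black line, the quartiles as a thick bar and the range as a thin line. Co-occupied regions are fewer than H3K27ac-alone regions (7522 against 19873) and wider (median 3210.5 bp against 1489 bp), and the 241 NIPBL-alone regions are narrow (374 bp).

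Co-occupied regions lay mostly at the ends of genes, and H3K27ac-alone regions mostly did not. A region counted as at a gene end when either end of a protein-coding gene body lay within 1 kb. This held for 5727 co-occupied regions (76.1%), 49 NIPBL-alone regions (20.3%) and 1669 H3K27ac-alone regions (8.40%), against 22.1% of all merged regions. Regions with both H3K27ac lists and 1 NIPBL list were in between, at 43.8%. With annotated start sites in place of gene ends, the shares were 67.1% of co-occupied, 14.0% of NIPBL-alone and 5.01% of H3K27ac-alone regions. Inside gene bodies but away from their ends lay 1050 co-occupied regions (14.0%), 82 NIPBL-alone regions (34.0%) and 9751 H3K27ac-alone regions (49.1%). Regions clear of gene bodies and ends made up 9.90% of co-occupied, 45.6% of NIPBL-alone and 42.5% of H3K27ac-alone regions.

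The contrast in gene ends stood at each width from 0.5 kb up. Among H3K27ac regions 2 to 4 kb wide, 85.2% of those with both NIPBL lists were at a gene end, against 55.4% with 1 list and 9.61% with none. At 8 kb and over the shares were 47.5% with both NIPBL lists, 23.6% with 1 and 11.2% with none. The size of the contrast depended on the strength of the peaks compared. With only peaks at or above the median −log10 q of their list, 83.4% of co-occupied and 26.8% of H3K27ac-alone regions were at a gene end. With the 9206 strongest peaks of each list, the shares were 85.8% and 60.0%, and 1369 H3K27ac-alone regions were left. Without NIPBL list 2, the H3K27ac-alone share was 15.0%.

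**Figure D2:**
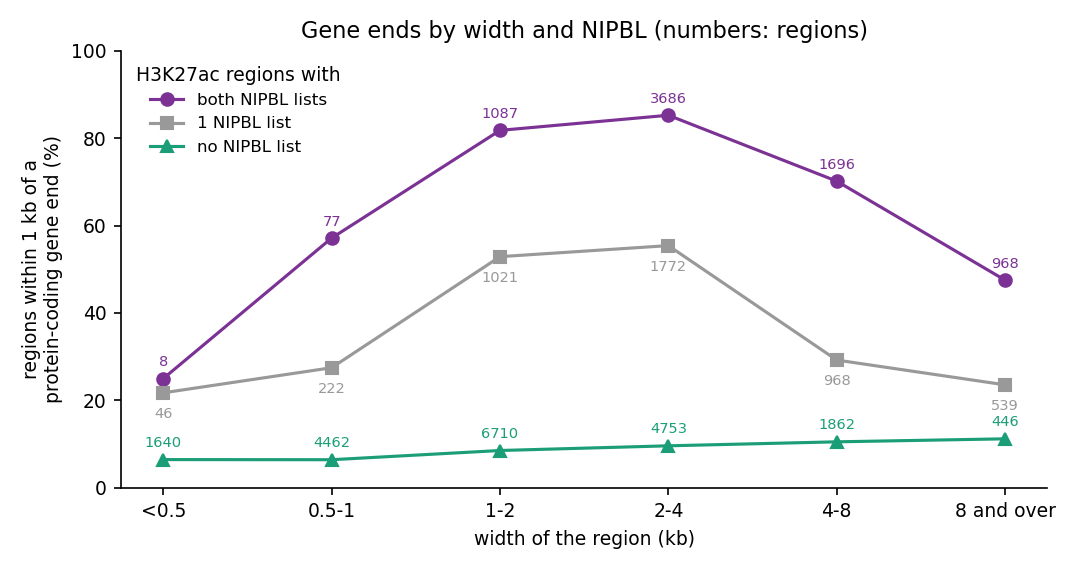
The share of H3K27ac regions within 1 kb of a protein-coding gene end (vertical axis, percent) by region width (horizontal axis, kb), for regions with both NIPBL lists, 1 NIPBL list or none. Small numbers give the regions behind each point. At 2 to 4 kb the points lie at 85.2%, 55.4% and 9.61%.

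Start sites, and not the far ends of genes, carried most of these regions. Among 4210 genes of at least 10 kb with a single annotated start at one end of the body, 35.7% had a co-occupied region within 1 kb of the start and 2.95% within 1 kb of the far end. For 2893 of them no other gene end lay within 5 kb of the far end, and a co-occupied region lay at 1.21% of those far ends. H3K27ac-alone regions lay at 4.77% of the 4210 starts and at 3.54% of the far ends. NIPBL-alone regions lay at 9 starts and 2 far ends.

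Within co-occupied regions at start sites, NIPBL sat closer to the start than H3K27ac. The centre of a NIPBL peak was a median of 86 bp downstream in list 1 and 91 bp downstream in list 2. The centre of an H3K27ac peak was 238.5 bp downstream in list 1 and 225 bp downstream in list 2. These medians are over peaks with a start site within 2 kb. Of all peaks in those regions, 70.1% and 67.6% of NIPBL peaks had their centre within 250 bp of a start, against 36.2% and 37.2% of H3K27ac peaks. H3K27ac peaks are wider, so their centres are also less sharply placed.

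**Figure D3:**
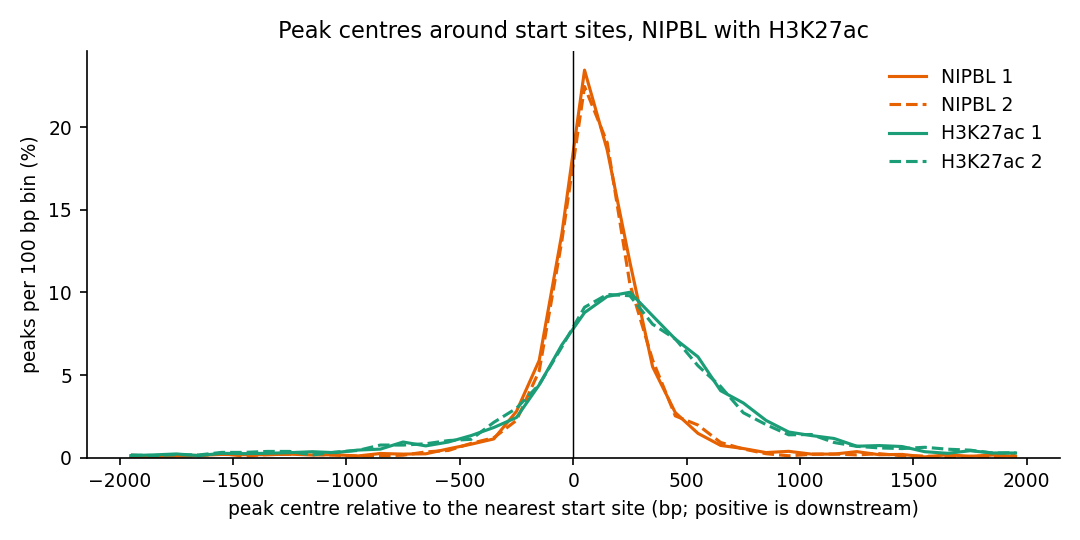
Distance of peak centres to the nearest start site (horizontal axis, bp, positive downstream) in co-occupied regions at start sites, as the percent of peaks per 100 bp bin (vertical axis), for NIPBL lists 1 and 2 and H3K27ac lists 1 and 2. Both NIPBL lists peak just downstream of the start, at medians of 86 and 91 bp, and both H3K27ac lists spread further downstream.

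NIPBL peaks were single, narrow and near the middle of the acetylated region. A single NIPBL peak stood in 92.3% of co-occupied regions in list 1 and in 87.7% in list 2. The median offset of its centre from the region's centre was 26.0% and 26.2% of the distance from centre to edge, and 80.8% and 79.5% of peak centres lay closer to the centre than to an edge. NIPBL covered a median of 15.0% of the region in list 1 and 23.3% in list 2. Of the bases of these NIPBL peaks, 99.1% to 99.4% lay inside H3K27ac peaks over the 4 pairings of lists. A base shared by all 4 lists was found in 7395 of 7522 co-occupied regions (98.3%). Only 104 regions in list 1 and 256 in list 2 held 3 or more NIPBL peaks, and the most in 1 region was 6 and 11.

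Acetylation was stronger where NIPBL was found. Fold enrichment and −log10 q are the authors' values for each peak and are read within a list only. The median H3K27ac fold enrichment was 7.26 in co-occupied and 3.09 in H3K27ac-alone regions in list 1, and 7.33 and 3.14 in list 2. By −log10 q, the median H3K27ac peak of co-occupied regions ranked at percentile 87.9 of list 1 and 88.6 of list 2, where 100 is the strongest. H3K27ac-alone peaks ranked at 41.2 and 44.9. Among regions 2 to 4 kb wide the median fold was still 7.95 and 8.07 in co-occupied against 3.33 and 3.37 in H3K27ac-alone regions. NIPBL itself had a lower fold where acetylation was present. Its median fold enrichment was 2.90 in co-occupied and 3.77 in NIPBL-alone regions in list 1, and 3.42 and 4.16 in list 2. The NIPBL-alone peaks ranked at percentiles 82.2 and 80.3, against 52.5 and 67.1 for co-occupied peaks. The NIPBL-alone class includes 94 regions without an SMC1 peak, some of them with low fold and high −log10 q. Those with SMC1 were not ranked apart. A peak had to pass the authors' threshold to be listed, so a region without a NIPBL peak may still hold NIPBL below it.

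The co-occupied regions away from gene ends were wider still. There were 1795 of these, with a median width of 4555 bp against 3026 bp at gene ends, and 20.8% were at least 10 kb wide against 5.62% at gene ends. Of them, 1050 lay inside a gene body and 745 outside. An annotated start site lay within 1 kb of 382 of the 1795 (21.8% with chromosome 18 left out). Regions away from gene ends are thus not all away from start sites, here and below. H3K27ac peaks of the 1795 regions had a median fold of 5.67 and 5.74, against 7.67 and 7.79 at gene ends. NIPBL folds were close in the 2 settings, at medians of 3.10 and 3.40 away from gene ends and 2.83 and 3.44 at gene ends.

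Lists that the classes did not use were then read at the same regions, with 1 bp of overlap. SMC1, a subunit of the cohesin ring, overlapped 96.4% and 97.6% of co-occupied regions in its 2 empty vector lists. It overlapped 47.3% and 59.3% of NIPBL-alone regions and 42.5% and 46.8% of H3K27ac-alone regions, against 46.8% and 49.7% of all merged regions. NIPBL-alone regions are the narrowest (median 374 bp). Their shares were not compared at like width, here or for the lists below. Among regions 2 to 4 kb wide SMC1 was at 96.0% and 97.2% of co-occupied and 54.4% and 58.6% of H3K27ac-alone regions, so the difference stood at like width. Away from gene ends at that width it was at 96.1% and 97.4% of 544 co-occupied and 52.6% and 56.8% of 4296 H3K27ac-alone regions.

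CTCF, which bounds chromatin loops, overlapped fewer regions of each class than SMC1. Its shares were 54.0% and 67.6% of co-occupied, 18.7% and 18.7% of NIPBL-alone, and 14.2% and 17.1% of H3K27ac-alone regions, against 20.8% and 25.4% of all merged regions. TCF-1 lists are short, with 4978 and 5356 peaks. They overlapped 40.6% and 41.1% of co-occupied, 5.39% and 5.81% of NIPBL-alone, and 1.66% and 2.19% of H3K27ac-alone regions, against 8.89% and 9.40% of all merged regions. Among regions 2 to 4 kb wide and away from gene ends, TCF-1 was at 32.0% and 30.9% of co-occupied and 1.91% and 2.37% of H3K27ac-alone regions.

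The classes were largely met again in cells with TCF-1 knocked out, and the NIPBL and H3K27ac lists of the knockout were not used to make them. Knockout NIPBL lists overlapped 99.3% and 95.0% of co-occupied, 90.9% and 80.5% of NIPBL-alone, and 22.7% and 6.50% of H3K27ac-alone regions. Of all merged regions they overlapped 36.6% and 24.6%. The first knockout NIPBL list is the longer, with 23951 peaks against 14107. Knockout H3K27ac lists overlapped 99.3% and 99.3% of co-occupied, 3.73% and 4.15% of NIPBL-alone, and 74.8% and 75.5% of H3K27ac-alone regions. For all merged regions the shares of these knockout H3K27ac lists were 65.9% and 67.0%. Shares of the empty vector NIPBL and H3K27ac lists are fixed by the classes, so no difference between knockout and empty vector was tested for them.

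SMC1 and CTCF were compared between knockout and empty vector lists at the 3 classes, 6 comparisons in all. At NIPBL-alone regions SMC1 was at 64.3% and 66.8% in knockout lists and at 47.3% and 59.3% in empty vector lists. At H3K27ac-alone regions it was at 49.9% and 51.7% in knockout lists and at 42.5% and 46.8% in empty vector lists. The groups did not overlap in either case, and the exact permutation p was 0.333 (2-sided, adjusted p = 1), the smallest that 2 lists against 2 allow. Over all merged regions SMC1 was at 51.9% and 53.0% in knockout lists and at 46.8% and 49.7% in empty vector lists. Those groups did not overlap either, so the shift was not particular to the NIPBL-alone and H3K27ac-alone classes. Knockout SMC1 lists were longer, with 88886 and 96416 peaks against 70438 and 77587 with the empty vector, and their part in the difference was not tested. In the other 4 of the 6 comparisons the groups overlapped, with exact p between 0.667 and 1. SMC1 of untreated NIH-3T3 fibroblasts, 1 list of 105033 peaks, overlapped 87.9% of co-occupied, 39.8% of NIPBL-alone and 32.6% of H3K27ac-alone regions. It overlapped 40.4% of all merged regions. For co-occupied regions its share was 72.3% away from gene ends and 92.8% at gene ends.

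**Figure D4:**
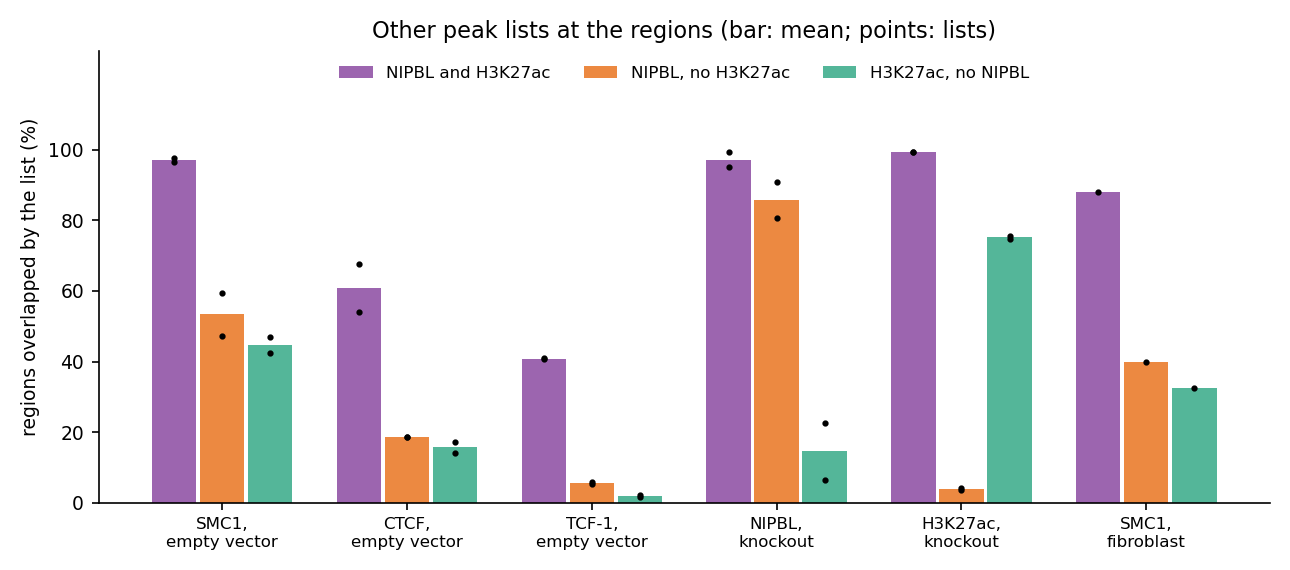
The percent of regions of each class (vertical axis) overlapped by lists that the classes did not use (horizontal axis). Bars are means over lists and points are single lists. Co-occupied regions are the highest for SMC1, CTCF and TCF-1 of empty vector cells and for fibroblast SMC1, and knockout NIPBL and H3K27ac lists fall on the classes that hold the same antibody.

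Protein-coding genes with a co-occupied region within 1 kb of an end numbered 6954 (31.8% of 21883). NIPBL-alone regions lay at an end of 54 genes (0.247%) and H3K27ac-alone regions at an end of 1738 genes (7.94%). At an annotated start site, the shares of 17491 genes with a window were 32.1% for co-occupied, 0.189% for NIPBL-alone and 5.59% for H3K27ac-alone regions. H3K27ac of both lists was at an end of 10323 genes (47.2%), and 67.4% of these were among the co-occupied. Lists of genes with known roles were counted against those shares.

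T lineage regulators had a co-occupied region at an end for 13 of 18 genes, against 31.8% of all protein-coding genes. H3K27ac of both lists was there for 17, and 67.4% of all genes with such H3K27ac were co-occupied. Tcf7 lay in a co-occupied region of 26094 bp (chr11:52264065-52290158). Its highest NIPBL fold was 8.13 in list 1 and 5.11 in list 2, and its H3K27ac fold was 6.44 and 5.88. Bcl11b, the factor of T lineage commitment, had NIPBL folds of 3.52 and 4.10 and H3K27ac folds of 7.86 and 7.68. Lef1, the relative of TCF-1, had NIPBL folds of 3.34 and 4.53 and H3K27ac folds of 8.71 and 8.81. Runx1, a regulator of blood stem cells and T cells, had 3.10 and 3.24 for NIPBL and 6.87 and 6.59 for H3K27ac. Gata3 and Runx3 had H3K27ac at an end and a NIPBL peak in list 2 alone, with folds of 3.43 and 2.61. Ets1 had the same pattern, with a NIPBL fold of 3.24 in list 2 alone, and Hhex had a NIPBL peak in list 2 alone (3.42) and no H3K27ac peak. Tox had H3K27ac and no NIPBL peak at an end.

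Of 21 genes of pre-T cell receptor and T cell signalling, 11 were co-occupied at an end and 19 had H3K27ac of both lists there. Over all genes with H3K27ac of both lists at an end, 67.4% were co-occupied. Ptcra, the pre-T alpha chain, had NIPBL folds of 4.15 and 5.31 and H3K27ac folds of 7.40 and 7.69, in a region of 16176 bp. Cd3d and Cd3e, chains of the CD3 complex, had NIPBL folds of 3.11 and 3.89 and of 2.98 and 3.16. Dntt, the polymerase that adds bases at receptor joints, had H3K27ac folds of 5.88 and 6.10 and no NIPBL peak. Rag1, a subunit of the recombinase, had H3K27ac folds of 3.85 and 4.01 and no NIPBL peak. Rag2, the partner subunit, had no peak of any of the 4 lists at an end, and 1 H3K27ac-alone region lay within 10 kb of its body. The kinase genes Lck and Zap70 were co-occupied at an end. Cd247, the zeta chain of the receptor complex, had H3K27ac folds of 4.95 and 5.99 and no NIPBL peak at an end.

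The label DN3 was read against 10 markers of such cells. H3K27ac of both lists was at an end of 9 of them and a co-occupied region at an end of 8, without Rag1 and Rag2. Il2ra, the CD25 chain that marks the stage, lay in a co-occupied region of 33897 bp with NIPBL folds of 4.25 and 3.44 and H3K27ac folds of 5.53 and 8.02. Thy1 lay in one of 33634 bp and Notch1 in one of 22935 bp. For other cells, H3K27ac of both lists was at an end of 5 of 12 B lineage, 4 of 12 myeloid, 3 of 11 natural killer and innate lymphoid, 1 of 14 fibroblast genes and 2 of 14 genes of other tissues. The share over all protein-coding genes was 47.2%, and that of the B lineage list was close to it, at 41.7%. The 5 B lineage genes were Cd79a, Vpreb1, Igll1, Cd22 and Pou2af1, and the fibroblast gene was Pdgfrb. Pax5 and Ebf1 of B cells and Col1a1 and Col1a2 of fibroblasts had no H3K27ac peak at an end.

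Notch targets were co-occupied at an end for 7 of 10 genes, and 8 had H3K27ac of both lists there. The co-occupied share over all genes with such H3K27ac was 67.4%. Hes1, the repressor that Notch induces directly, had NIPBL folds of 4.44 and 5.90 and H3K27ac folds of 6.21 and 6.65. Dtx1, a ubiquitin ligase of the pathway, had NIPBL folds of 3.92 and 5.72 and H3K27ac folds of 4.55 and 5.01. Nrarp, a feedback inhibitor, had NIPBL folds of 4.38 and 5.07 and lay in a region of 26196 bp. Myc had NIPBL folds of 2.87 and 4.08 and H3K27ac folds of 7.77 and 7.22. Hey1 and Heyl had no peak of the 4 lists at an end, and Igf1r had H3K27ac with NIPBL in list 2 alone.

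Genes of the cohesin machinery were co-occupied at an end for 12 of 15 members, and 13 had H3K27ac of both lists there. Smc1a, Smc3 and Rad21, which form the ring, had NIPBL folds of 3.21 and 4.07, of 2.53 and 3.04, and of 2.51 and 3.43. Stag2, the accessory subunit, had NIPBL folds of 4.02 and 3.62 and H3K27ac folds of 10.3 and 10.8. Nipbl and Stag1 had no peak of the 4 lists within 1 kb of an end of the annotated body, although 2 and 1 co-occupied regions lay within 10 kb of their bodies. Hdac8, the deacetylase of SMC3, had H3K27ac folds of 6.61 and 6.96 and no NIPBL peak. Mediator subunits and coactivators were co-occupied at an end for 11 of 14 genes, without Med1, Med12 and Med24. All 14 had H3K27ac of both lists at an end. For both lists of genes, the co-occupied share over all genes with such H3K27ac was 67.4%, and no difference from it was tested.

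Housekeeping and ribosomal protein genes reached the highest shares of the 13 lists. Housekeeping genes were co-occupied at an end for 12 of 14 members, without B2m and Ywhaz, and genes of ribosomal proteins for 62 of 76. H3K27ac of both lists was at an end of 13 housekeeping and 75 ribosomal protein genes. Actb had NIPBL folds of 2.82 and 3.25 and H3K27ac folds of 10.2 and 10.1. Genes of respiratory complex I had H3K27ac of both lists at an end in 37 of 37 cases and were co-occupied in 22 (59.5%). Over all genes with such H3K27ac, 67.4% were co-occupied. B lineage genes were co-occupied at an end for 2 of 12, natural killer and innate lymphoid genes for 2 of 11, and myeloid, fibroblast and other-tissue genes for 0 of 12, 0 of 14 and 0 of 14. The B lineage pair was Cd79a and Vpreb1, and the innate pair was Tbx21 and Id2. A NIPBL-alone region lay at an end of 1 other-tissue gene, Snap25, which serves release of neurotransmitter.

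**Figure D5:**
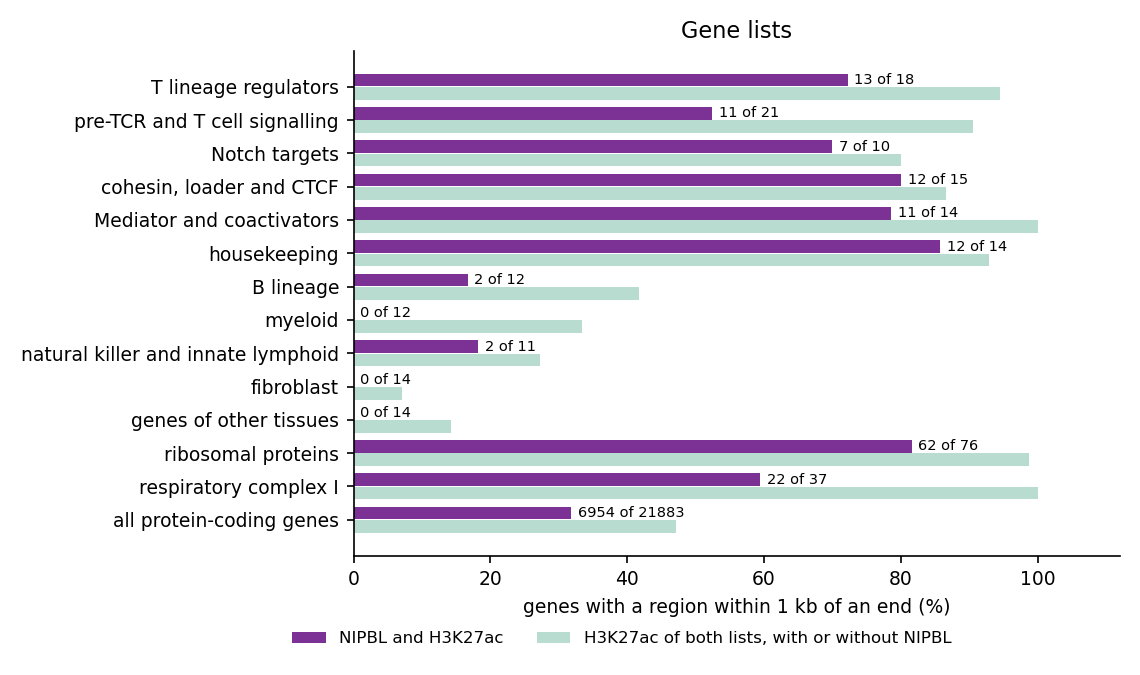
For each gene list, the percent of genes (horizontal axis) with a co-occupied region within 1 kb of an end (dark bars, with counts) and with H3K27ac of both lists there (light bars). Housekeeping, ribosomal protein and cohesin genes reach 12 of 14, 62 of 76 and 12 of 15, and the bottom bars give all 21883 protein-coding genes.

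The strongest co-occupied regions, ranked by the lowest percentile of −log10 q over the 4 lists, lay at gene ends in 6 of 10 cases. Hdac2, a histone deacetylase, had NIPBL folds of 5.48 and 6.44 and H3K27ac folds of 11.4 and 11.1 (chr10:36973761-36976117). Morc2a, an ATPase of gene silencing, had NIPBL folds of 6.16 and 5.76 and H3K27ac folds of 10.3 and 10.8 (chr11:3647765-3650205). Prmt3, an arginine methyltransferase, had NIPBL folds of 5.25 and 6.50. The regions at Zfp668 and Zfp646, at Rab5b and Pmel and at Tsfm, a mitochondrial elongation factor, followed. Away from genes, a region of 3742 bp lay over the Mir17 and Mir18 genes, 48335 bp from Gpc5, with NIPBL folds of 4.60 and 5.97 and H3K27ac folds of 14.1 and 14.4. A further region lay 35254 bp from Csf2ra.

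A further pair among the 10 stood apart, with neither SMC1 list. The first in rank, 21174 bp from Ly6c2, had NIPBL folds of 1.58 and 1.77 and H3K27ac folds of 2.13 and 2.03, with a −log10 q for NIPBL of 89.2 and 133. The other, of 312 bp and 64688 bp from Cr2, had NIPBL folds of 1.93 and 2.56 and a −log10 q for H3K27ac of 978 and 1019. Both knockout NIPBL lists and both knockout H3K27ac lists held the pair. No blacklist of regions prone to false signal was applied. The pair therefore cannot be taken as sites of NIPBL or H3K27ac from these lists, nor can its return in knockout lists. The region near Csf2ra, with low NIPBL folds and a high −log10 q for H3K27ac, falls under the same caution.

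NIPBL covered a small part of the width of the widest co-occupied regions. For scale, NIPBL peaks in co-occupied regions had a median width of 439 bp in list 1 and 659 bp in list 2. The widest region, of 65495 bp, lay 272577 bp from Runx1, and NIPBL covered 1065 bp of it in list 1 and 2005 bp in list 2. One of 62877 bp lay inside Gse1, with 4 and 11 NIPBL peaks over 2204 and 8130 bp. Others lay at the end of Nfib, 206335 bp from Sdk2 and 471815 bp from Gsdmc. The last, of 58660 bp (chr15:63245497-63304156), lies 1.26 Mb beyond Myc, a distance looked up after its values were seen. NIPBL covered 906 and 2923 bp of it, with folds of 3.62 and 4.19. Gse1 also had the most co-occupied regions within 10 kb of its body, with 11, followed by Slc39a11 with 7 and Ctc1, Ganab and Msra with 5 each.

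H3K27ac-alone regions of the highest rank reached folds near those of co-occupied regions. One 3246 bp from Ift22, a gene of transport in cilia, had H3K27ac folds of 9.78 and 11.2. Troap, a gene of the mitotic spindle, had H3K27ac folds of 9.42 and 10.1 at its start (chr15:99073913-99076010). Others were at Ttll13 and Ngrn, Tm9sf4, Prpf8 and Tbce, or near H2-M10.1, Pom121l2 and Slfn3. All 10 were overlapped by both SMC1 lists and by both knockout H3K27ac lists. Each of the 10 was also overlapped by a NIPBL list of the knockout, 6 by both lists and 4 by 1. Among the widest were those in Fyb, an adaptor of T cell signalling (37472 bp), in Nfib (35954 bp), in Megf11 and in Akap7. Genes with the most H3K27ac-alone regions within 10 kb of the body were long, with 69 for Thsd7b (946 kb), 53 for Esrrg, 51 for Exoc4, 51 for Lpp and 43 for Rora. Over all protein-coding genes, 40.9% had a co-occupied, 0.973% a NIPBL-alone and 31.9% an H3K27ac-alone region within 10 kb of the body.

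NIPBL-alone regions included the strongest NIPBL peaks of all. One of 524 bp inside Erich1 (chr8:14072469-14072992) had folds of 28.4 and 37.1, the highest fold of each NIPBL list. Cacng2, a subunit of glutamate receptors, had NIPBL folds of 13.4 and 16.2 at its start (chr15:78119502-78120203). One 4669 bp from Smim17 had 11.9 and 16.2. One 19875 bp from Kcnk9, a potassium channel, had 8.97 and 10.2. Npas4, a transcription factor of active neurons, had 9.05 and 12.2, Phf21b had 14.5 and 16.3, and a region 12069 bp from Galr1, a galanin receptor, had 13.6 and 17.0. Xkr6 had 8.98 and 11.7. These 8 were overlapped by both empty vector SMC1 lists and both knockout NIPBL lists, and by no knockout H3K27ac list. Both CTCF lists overlapped the one near Kcnk9, 1 list overlapped those at Xkr6 and Phf21b, and none overlapped the other 5.

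Further down the ranking, some genes of neurons were picked after their values were seen. They were Rbfox3, a splicing factor, with NIPBL folds of 7.95 and 11.1, Scrt1, a repressor, with 7.18 and 12.9, and Unc5a, a netrin receptor, with 8.28 and 10.3. They were picked for their names among 30 further regions, so they say nothing of how common such genes are in the class.

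The remaining 2 of the 10 had low folds and no SMC1. One of 5782 bp (chr17:39843013-39848794), 101726 bp from Esp38, lies over the ribosomal RNA pseudogene Rn18s-rs5, with NIPBL folds of 1.98 and 2.72. The other, over 1 Mb from Lrrc4c, had folds of 1.36 and 1.28 and a −log10 q of 185 and 85.2.

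The 241 NIPBL-alone regions differed in listed SMC1. No blacklist of regions prone to false signal was applied, so those without SMC1, the low-fold ones above among them, cannot be taken as sites of NIPBL from these lists, nor can their return in knockout lists. Both SMC1 lists overlapped 110 of them, 1 list overlapped 37 and neither overlapped 94. Of the 110 with both SMC1 lists, 41 had both CTCF lists and 65 had neither, and fibroblast SMC1 was at 70.0%. Of the 94 without SMC1, 1 had both CTCF lists and fibroblast SMC1 was at 9.57%. Both knockout NIPBL lists held 92 of the 110 and 62 of the 94. The median width was 366.5 bp with both SMC1 lists and 380.5 bp with neither. Groups of 3 or more NIPBL-alone regions within 50 kb of each other were found at 2 places, both without SMC1 or CTCF. One held 9 regions at chr9:3000100-3038223, with Alkbh8 as the nearest gene, and the other held 5 at chr11:3101035-3153406, at Sfi1. Without these 14 regions, 21.6% of NIPBL-alone regions were at a gene end.

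CAGCACC and GGACAG are parts of the element read by REST, a repressor of neuronal genes, and were added to the motifs after the genes above were seen. CAGCACC stood in 6 of 29 NIPBL-alone windows (20.7%), 7.51% of co-occupied and 8.50% of H3K27ac-alone windows, against 7.14% of all. GGACAG stood in 31.0% of NIPBL-alone, 21.1% of co-occupied and 23.4% of H3K27ac-alone windows, against 22.2% of all. Windows of 4 genes with a NIPBL-alone region, Gm32659, Igf2r, Lrp11 and Tph2, were counted for both parts in any arrangement. The share of all windows with both parts in any arrangement was not counted, so these 4 cannot be read as an excess. The parts in order and 2 bases apart stood in 1 NIPBL-alone, 1 co-occupied and 0 H3K27ac-alone windows, among 12 of all 32851. The NIPBL-alone one belongs to the non-coding gene Gm32659 (chr2:136714289-136714588, minus strand), which starts inside Snap25, and is shown with the parts in capitals, reading as their reverse complements.
Gm32659: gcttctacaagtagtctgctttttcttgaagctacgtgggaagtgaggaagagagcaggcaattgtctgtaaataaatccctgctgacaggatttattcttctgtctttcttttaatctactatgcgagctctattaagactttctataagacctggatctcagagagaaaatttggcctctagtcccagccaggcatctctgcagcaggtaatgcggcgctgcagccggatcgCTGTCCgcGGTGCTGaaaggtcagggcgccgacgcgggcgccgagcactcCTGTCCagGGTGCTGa
The region there (chr2:136714114-136714411) had NIPBL folds of 4.41 and 5.26 and no H3K27ac peak.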

How the data were processed

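Per the labels' protocols, chromatin was fixed with 1% formaldehyde and sonicated, and read pairs were 38 bp and 37 bp long. Bowtie2, MACS2, bedtools and the build mm10 are named per the submitters' processing notes, with versions, settings and controls not given in the sources used here. The NIPBL and H3K27ac lists that the authors deposited have 9 columns, with a position, score, fold enrichment, −log10 p and −log10 q per peak. The score that the authors deposited was not used. The fold enrichment and −log10 q that the authors deposited served only to rank, filter or describe peaks within a list. The SMC1, CTCF and TCF-1 lists that the authors deposited hold positions only. Read totals are unknown here, so no interval for counting error is given.

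Peaks of the 4 lists were merged (gap 0), which gave 47055 regions, as bedtools 2.31.1 did, and an overlap of 1 bp placed a region in a list. Gene bodies (21883 protein-coding genes) and promoter windows came from RefSeq GRCm38.p6. No windows were used for chromosome 18, which was left out of start site shares. The classes come from 2 lists per antibody, and regions are not replicates, so values are described without a test, apart from exact permutation tests over lists. Lists given as replicates may differ only technically.

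Members, gene lists and motifs were chosen with earlier results of these data known, and the 268 entries of 13 gene lists all matched. Named regions are, per class, the 10 of highest rank and the 5 widest, and genes are the 5 with most regions, the first 6 of each gene list and the markers. Other genes were named after their values were seen, to complete a count. Some regions and genes chosen this way are left unreported. Printed promoters are the 2 of highest rank per class whose window a region of the class overlaps, plus Tcf7, and 1 chosen for its motif. Alternatives were an overlap of 50%, a stricter threshold, equal list length, merging across 500 bp, single lists left out, a replicate block, chromosomes 1 to 19 and X, and 5 kb for gene ends. Tables were computed in pandas 2.3.3 and numpy 2.4.6, exact tests in scipy 1.17.1 and figures in matplotlib 3.10.9, under Python 3.11.15. The classing was tested on simulated data, where 700, 50 and 1900 planted regions were all recovered.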

Additional observations from a re-analysis of the deposited data

How the results depend on the processing

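Of 140 recomputed values for 11 results, 97 stayed within 1.5 times (counts) or 1 SD over the 4 pairings of 1 NIPBL with 1 H3K27ac list (other values), and 43 moved. Co-occupied regions had a higher gene-end share and a larger median width than H3K27ac-alone regions under each setting. An overlap of 50% of the narrower of peak and region changed nothing, because peaks lie inside their merged region. Merging across 500 bp and a base shared by the lists moved none of the values. Chromosomes 1 to 19 and X returned each main value unchanged. Leaving out clusters of NIPBL-alone regions moved none either, and could change only values of that class. The 97 thus include values that could not move.

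With peaks at or above the median −log10 q, there were 3762 co-occupied regions (83.4% at a gene end), 158 NIPBL-alone and 10721 H3K27ac-alone regions (26.8%, median width 2858 bp), and 3923 genes. With 9206 peaks per list, co-occupied regions had 85.8% at a gene end and a median of 3102 bp, there were 746 NIPBL-alone regions (442 bp) and 1369 H3K27ac-alone regions (60.0%, 2676 bp), and NIPBL was in 65.9% of H3K27ac regions. Within 5 kb of a gene end lay 81.2% of co-occupied, 35.7% of NIPBL-alone and 20.9% of H3K27ac-alone regions, and at a start site 67.1%, 14.0% and 5.01%.

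The replicate block, with classes made within same-numbered lists, gave 68.5% at a gene end and 2913.5 bp for co-occupied, 1221 NIPBL-alone regions of 249.75 bp, and 30594.5 H3K27ac-alone regions of 968.5 bp. It moved no other result beyond the limit, and the results carry no call that pairing could change.

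Leaving out single lists gave 7541 to 11675 co-occupied regions (65.5% to 75.6% at a gene end, median 2972 to 3210 bp), 245 to 1812 NIPBL-alone regions (16.5% to 24.4%, 236.5 to 374 bp) and 20288 to 29887 H3K27ac-alone regions (6.68% to 15.0%, 857 to 1683 bp). The share of H3K27ac regions with NIPBL was 17.9% to 36.5% and the genes 6915 to 9017. With a list left out, its antibody is judged by the other list alone, so more regions qualify. Read depth per list is unknown, and the NIPBL lists differ in length, so a region without a listed NIPBL peak cannot be read as free of NIPBL. The start site and shared-base settings and the one without clusters were chosen after seeing the data.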
